A study of Mus musculus with 9 samples.

Results

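Glycolysis, the pentose phosphate pathway and the hypoxia response were followed through 37 mouse genes, listed by symbol for what they do in these pathways. A gene was measured where the platform annotation named it alone for a tested probe set, which held for 32 of the 37 among 18193 genes in all. Of the other 5, Gapdh is named only by Affymetrix control probe sets and is described without a test, and Gpi1, Eno1, G6pdx and Bnip3l were not analysed here. RNA came from cultured mouse CD4 T cells of C57BL/6 background and was read on 9 arrays, 3 in each of 3 groups. Tconv are conventional T cells. The purTGFβ_iTreg and pltTGFβ_iTreg groups are induced regulatory T cells (iTreg), grown from spleen CD4+EGFP– cells of Foxp3EGFP mice, whose green reporter marks cells expressing Foxp3. Plate-bound anti-CD3 at 2.5 µg/ml, soluble anti-CD28 at 1 µg/ml and IL2 at 100 U/ml were used for both, over 72 hours. TGFβ1 was supplied as the purified protein at 5 ng/ml in purTGFβ_iTreg and by freeze/thaw lysates of platelets from wild type C57BL/6 mice in pltTGFβ_iTreg. A treatment note carried by every sample says that Tconv cells were kept with TGFβ1 at 5 ng/ml for 72 hours, which leaves the treatment of the Tconv group unsettled. Whether EGFP+ cells were purified from the iTreg cultures ahead of RNA extraction is not stated. The design text calls the replicates biological. Whether each came from its own animal is not given. The p-values below set group differences against the spread between these arrays, which may not be that between animals.

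Glycolysis splits glucose into pyruvate and yields ATP without oxygen. Activated T cells run it fast, bring in glucose through the transporters encoded by Slc2a1 and Slc2a3, trap it with hexokinases and turn much of the pyruvate into lactate. The pentose phosphate pathway branches off after the hexokinase step and makes NADPH and ribose. HIF-1α, the protein of Hif1a, is held down by prolyl hydroxylases such as those of Egln1 and Egln3 while oxygen is present, and otherwise binds DNA with ARNT and raises transcription of glycolytic enzymes and of genes for matrix, vessel and mitophagy functions. In T cells, HIF-1α and glycolysis are also raised by mTORC1 and by antigen receptor signals, and regulatory T cells are usually described as less glycolytic than effector T cells.

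Values are log2 expression values from Robust Multichip Analysis (RMA), a log2 change is the difference of 2 group means on that scale, and errors are SD over 3 arrays. A gene was called at an adjusted p under 0.1 (limma, Benjamini-Hochberg over 45037 probe sets) with a log2 change beyond 0.5 in size, the cutoffs the authors state, who give that change as 1.4-fold. Arrays of a group correlated at 0.994 to 0.998 over probe sets, Tconv with iTreg arrays at 0.956 to 0.970 and the iTreg groups with each other at 0.993 to 0.995. Pan T cell markers averaged 10.37 to 10.75 on every array (9 of 10 measured), but single ones differed. Cd4 (log2 changes -0.72 and -0.62) and Cd5 (-0.84 and -0.59) were called lower in purTGFβ_iTreg and pltTGFβ_iTreg. Cd247 was called lower in purTGFβ_iTreg (-0.65), and Cd28 (0.78) and Cd2 (0.52) higher in pltTGFβ_iTreg. Platelet markers averaged 4.45 to 4.63 on Tconv arrays and 4.14 to 4.28 on iTreg arrays (10 of 11 measured). Of these, Itga2b was called lower in both iTreg groups (-0.63 and -0.61) and Gp6 in pltTGFβ_iTreg (-0.55). Pf4, the platelet chemokine, read 3.32 ± 0.13 in Tconv, 3.05 ± 0.09 in purTGFβ_iTreg and 3.30 ± 0.15 in pltTGFβ_iTreg. Erythroid (6 of 8 measured), B cell (6 of 7), myeloid (8 of 8) and CD8 or NK markers (5 of 6) averaged 3.55 to 4.79 over all arrays. Within them, Klrd1 was called higher in purTGFβ_iTreg and pltTGFβ_iTreg (log2 changes 3.17 and 1.90). Cd8b1 (-0.98 and -1.04), Cd79b (-1.46 and -1.65) and the erythroid Klf1 (-0.56 and -0.64) were called lower in both. Epor was called lower in pltTGFβ_iTreg alone (-0.57). The part of these markers in the results was not tested. Foxp3, the lineage factor of regulatory T cells, read 3.79 ± 0.12, 3.77 ± 0.08 and 3.86 ± 0.04 in Tconv, purTGFβ_iTreg and pltTGFβ_iTreg. These means lay below the median of every array (4.46 to 4.56), so equal Foxp3 RNA cannot be read from them. Il2ra, Ctla4, Ikzf2, Ikzf4, Nt5e and Gpr83 were called higher in both iTreg groups. Xist read 10.81 ± 0.16 in Tconv and 3.61 ± 0.21 and 3.94 ± 0.05 in the iTreg groups, and the Y-linked Eif2s3y read 2.70 ± 0.11 against 9.01 ± 0.18 and 8.95 ± 0.07. Donor sex therefore ran with both comparisons against Tconv and cannot be told apart from the group there. Of the members, Pgk1, Pdk3 and G6pdx lie on the X chromosome.

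Called members of glycolysis were all lower than in Tconv, with either source of TGFβ1, while those of oxygen sensing were higher and other hypoxia targets went both ways. Hif1a, Egln3, P4ha1, Bnip3 and Mxi1 were higher in both iTreg groups. Slc2a3, Hk1, Pfkl, Pfkm, Aldoa, Aldoc, Ldhb, P4ha2 and Tkt were lower in both. Ldha, which forms lactate, and Pgk1 and Pgam1 of lower glycolysis were not called. Between the iTreg groups, Hk2 was higher and Mxi1 and Vegfa were lower with platelet lysate.

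In purTGFβ_iTreg against Tconv, 5 of 32 members were called higher (15.6%, against 14.5% of all genes) and 11 lower (34.4%, against 14.9%), where 29.3% of all genes were called in either direction. In pltTGFβ_iTreg against Tconv, 5 were called higher (15.6%, against 13.9%) and 12 lower (37.5%, against 14.7%), where 28.5% of all genes were called either way. The median change of the members was -0.31 and -0.26, beside -0.17 and -0.16 over all genes. The share of higher calls was thus near the background and the share of lower calls above it, as a description only. The background takes in dim genes, while 31 of the 32 members remained once the dimmest 40% of probe sets were left out. The 2 comparisons with Tconv share the Tconv arrays. Of the members, 13 were called in neither, 3 were called lower against Tconv with platelet lysate alone (Pfkp, Vegfa and Taldo1) and 2 with purified TGFβ1 alone (Hk2 and Eno3). The difference between the iTreg groups was called for Hk2 and Vegfa but not for Pfkp, Taldo1 or Eno3, whose differences were -0.09, -0.18 and 0.18. The 3 iTreg arrays lay wholly above the Tconv arrays for 8 members and wholly below for 19 with purified TGFβ1 (21.1% and 41.6% of all genes), and for 11 and 16 with platelet lysate (20.7% and 38.4%). Quantile normalization of the deposited values changed the balance over all genes: 49.3% of called genes were higher in purTGFβ_iTreg against Tconv as deposited and 38.6% after it, and 48.5% and 38.4% in pltTGFβ_iTreg. RNA of a mixed culture was measured, so fewer cells expressing a gene and less RNA per cell cannot be told apart.

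**Figure D1:**
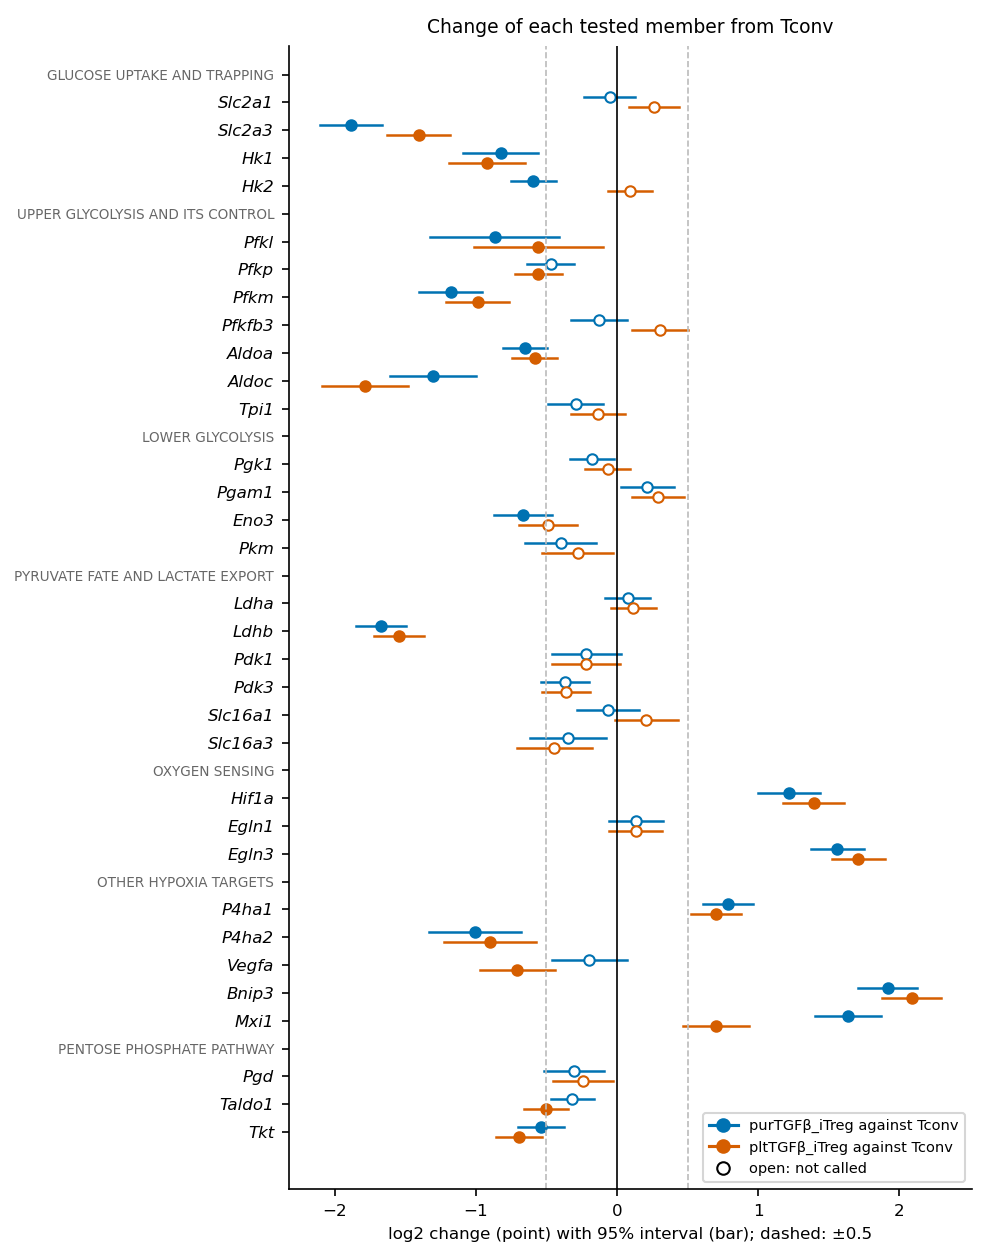
Log2 change of each of the 32 tested members from Tconv (x axis), grouped by role (y axis), with its 95% interval as a bar; blue is purTGFβ_iTreg, orange pltTGFβ_iTreg, open points were not called and dashed lines mark a change of 0.5 in size. Bnip3 at 1.92 and 2.09 stands at the right end in both groups. At the left end are Slc2a3 at -1.88 in purTGFβ_iTreg and Aldoc at -1.79 in pltTGFβ_iTreg. All called members of glycolysis lie left of 0.

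Glucose uptake and trapping held 4 members, of which 3 fell in purTGFβ_iTreg and 2 in pltTGFβ_iTreg. Of all genes, 14.9% and 14.7% were called lower in these groups. Slc2a3, the gene of the high-affinity glucose transporter GLUT3, read 9.93, 9.68 and 9.70 on the Tconv arrays, 7.91, 7.93 and 7.81 in purTGFβ_iTreg and 8.50, 8.39 and 8.20 in pltTGFβ_iTreg. All iTreg arrays lay more than a full log2 unit below the lowest Tconv array, with the platelet lysate arrays above those of purified TGFβ1. The falls were 3.69-fold (log2 change -1.88 ± 0.10 SE, adjusted p = 4.63e-08) and 2.65-fold (-1.41 ± 0.10, adjusted p = 5.16e-07). Slc2a1, the gene of GLUT1, the transporter most tied to T cell activation, read 9.41, 9.55 and 9.30 in Tconv, 9.37, 9.37 and 9.36 in purTGFβ_iTreg and 9.70, 9.66 and 9.69 in pltTGFβ_iTreg. It was not called in either comparison with Tconv (log2 changes -0.05 and 0.26, the former 0.01 with centred array medians), although the arrays with platelet lysate lay above all others.

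The 2 hexokinases were both called lower with purified TGFβ1, and only Hk1 was with platelet lysate. The difference between the 2 genes was not tested. Hk1, the isoform found in most tissues, read 8.84, 9.13 and 9.40 in Tconv, 8.22, 8.30 and 8.38 in purTGFβ_iTreg and 8.21, 8.22 and 8.18 in pltTGFβ_iTreg. Every iTreg array was below every Tconv array, and the Tconv arrays were the more spread. The falls were 1.77-fold (log2 change -0.82 ± 0.12 SE, adjusted p = 0.000177) and 1.89-fold (-0.92 ± 0.12, adjusted p = 7.85e-05). Hk2, the inducible isoform that activated T cells raise, read 9.10, 9.03 and 9.08 in Tconv, 8.44, 8.47 and 8.53 in purTGFβ_iTreg and 9.20, 9.15 and 9.14 in pltTGFβ_iTreg. Only the purified TGFβ1 arrays stood low, and the platelet lysate arrays sat just above Tconv. Against Tconv, Hk2 fell 1.51-fold in purTGFβ_iTreg (log2 change -0.59 ± 0.07 SE, adjusted p = 3.67e-05) and was not called in pltTGFβ_iTreg (0.09, adjusted p = 0.324, and -0.03 after quantile normalization).

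Upper glycolysis, from glucose 6-phosphate to the triose phosphates, held 7 tested members. Of these, 4 fell in purTGFβ_iTreg, 5 in pltTGFβ_iTreg and none rose, where 14.9% and 14.7% of all genes were called lower. Pfkm, the muscle-type subunit of phosphofructokinase, the committed step, read 7.70, 8.01 and 7.99 in Tconv, 6.58, 6.83 and 6.75 in purTGFβ_iTreg and 6.89, 6.92 and 6.92 in pltTGFβ_iTreg. The groups did not overlap with Tconv. It fell 2.26-fold (log2 change -1.18 ± 0.10 SE, adjusted p = 2.12e-06) and 1.98-fold (-0.99 ± 0.10, adjusted p = 9.94e-06). Pfkl, the liver-type subunit, read 8.60, 9.25 and 9.53 in Tconv, 7.96, 8.36 and 8.45 in purTGFβ_iTreg and 8.63, 8.70 and 8.37 in pltTGFβ_iTreg. The lowest Tconv array overlapped with the platelet lysate arrays. Its fall of 0.87 with purified TGFβ1 had an adjusted p of 0.0051, and that of 0.56 with platelet lysate, at an adjusted p of 0.0469, was not called without Tconv replicate 2 (-0.50), Tconv replicate 3 (-0.36) or pltTGFβ_iTreg replicate 3 (-0.46). Nor was it over the mean of its probe sets (-0.43) or in an unmoderated contrast (adjusted p = 0.153), and its other 2 probe sets were not called there (-0.47 and -0.27). Pfkp, the platelet-type subunit, had log2 changes of -0.47 and -0.56 and was called in the latter. Without purTGFβ_iTreg replicate 2 the former was called too (-0.50), and over the mean of all 3 of its probe sets the latter was -0.19.

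Aldoc, an aldolase best known from brain and also a hypoxia target, read 7.53, 7.73 and 8.11 in Tconv, 6.44, 6.53 and 6.48 in purTGFβ_iTreg and 6.22, 5.92 and 5.88 in pltTGFβ_iTreg. The 3 groups followed one another without overlap, Tconv highest and platelet lysate lowest. The falls from Tconv were 2.47-fold (log2 change -1.31 ± 0.14 SE, adjusted p = 1.13e-05) and 3.45-fold (-1.79 ± 0.14, adjusted p = 9.41e-07). Aldoa, the main aldolase of T cells, read 12.68, 12.79 and 12.69 in Tconv, 12.08, 12.07 and 12.07 in purTGFβ_iTreg and 12.13, 12.14 and 12.14 in pltTGFβ_iTreg. It was lower on every iTreg array, by 1.57-fold (adjusted p = 1.55e-05) and 1.5-fold (adjusted p = 4.08e-05). All named probe sets of Aldoa are of a kind that Affymetrix marks as open to cross-hybridisation, and all were called lower in both iTreg groups. Tpi1, triose phosphate isomerase, changed by -0.29 and -0.14 and was not called. Pfkfb3, whose product makes the activator fructose 2,6-bisphosphate, was not called either, at -0.13 with purified TGFβ1 and 0.31 with platelet lysate.

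Of 4 tested members of lower glycolysis, where the pathway makes its ATP, Eno3 fell in purTGFβ_iTreg and none was called in pltTGFβ_iTreg. Lower calls took in 14.9% and 14.7% of all genes in these comparisons. Eno3, the muscle-type enolase, read 9.83, 10.12 and 10.05 in Tconv, 9.31, 9.37 and 9.32 in purTGFβ_iTreg and 9.58, 9.58 and 9.38 in pltTGFβ_iTreg. All iTreg arrays were below Tconv. Its fall of 0.66 with purified TGFβ1 had an adjusted p of 0.000127. With platelet lysate the change of -0.49 (adjusted p = 0.00131) stayed just inside the cutoff, and it passed without Tconv replicate 1 (-0.57) or pltTGFβ_iTreg replicate 1 or 2 (-0.52 each) and after quantile normalization (-0.55). Pgk1, which makes the pathway's first ATP, read 13.23 ± 0.04 in Tconv, 13.05 ± 0.05 in purTGFβ_iTreg and 13.16 ± 0.02 in pltTGFβ_iTreg, with changes of -0.18 and -0.07. Pgam1, phosphoglycerate mutase, changed by 0.22 and 0.29 and Pkm, pyruvate kinase, by -0.40 and -0.28, none of them called, though Pkm was in purTGFβ_iTreg without Tconv replicate 1 (-0.51). The 3 control probe sets of Gapdh averaged 13.33, 13.45 and 13.44 in Tconv, 13.15, 13.37 and 13.31 in purTGFβ_iTreg and 13.17, 13.38 and 13.33 in pltTGFβ_iTreg, from the 3' end, the 5' end and the middle of the RNA in that order. Each was below Tconv on every iTreg array, with mean differences of -0.18 to -0.08. The 3' minus 5' difference of Gapdh, a measure of RNA integrity, was -0.16 to -0.09 in Tconv and -0.24 to -0.20 in the iTreg groups, and that of Actb was 0.03 to 0.07 on all arrays.

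At the pyruvate branch, Ldhb was called and Ldha was not; the difference between these subunits of lactate dehydrogenase was not tested. Ldhb, the heart-type subunit, associated with lactate use, read 9.16, 9.35 and 9.27 in Tconv, 7.50, 7.63 and 7.62 in purTGFβ_iTreg and 7.68, 7.72 and 7.74 in pltTGFβ_iTreg. All 6 iTreg arrays lay far below the Tconv arrays. The falls were 3.19-fold (log2 change -1.67 ± 0.08 SE, adjusted p = 2.13e-08) and 2.92-fold (-1.54 ± 0.08, adjusted p = 4.84e-08), and the 3 further probe sets of Ldhb were called lower too. Ldha, the subunit that favours lactate formation, read 13.16, 13.11 and 13.12 in Tconv, 13.16, 13.25 and 13.20 in purTGFβ_iTreg and 13.21, 13.27 and 13.25 in pltTGFβ_iTreg. Its changes of 0.08 (95% interval -0.08 to 0.23) and 0.12 (-0.04 to 0.27) were not called.

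The other 4 members of this group were not called. Pdk1 and Pdk3, kinases that shut pyruvate out of the mitochondrion's pyruvate dehydrogenase, changed by -0.22 and -0.37 in purTGFβ_iTreg and by -0.22 and -0.36 in pltTGFβ_iTreg. Probe sets of Pdk1 disagreed: another was called higher in both groups (0.66, adjusted p = 8.76e-05, and 0.59, adjusted p = 0.000221). After quantile normalization Pdk3 was called lower in purTGFβ_iTreg (-0.51). The lactate transporters Slc16a1 (MCT1) and Slc16a3 (MCT4) changed by -0.06 and -0.35 with purified TGFβ1 and by 0.21 and -0.44 with platelet lysate. The last of these passed the cutoff after quantile normalization (-0.57) and without Tconv replicate 1 (-0.52) or pltTGFβ_iTreg replicate 1 (-0.51) or 2 (-0.50).

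**Figure D2:**
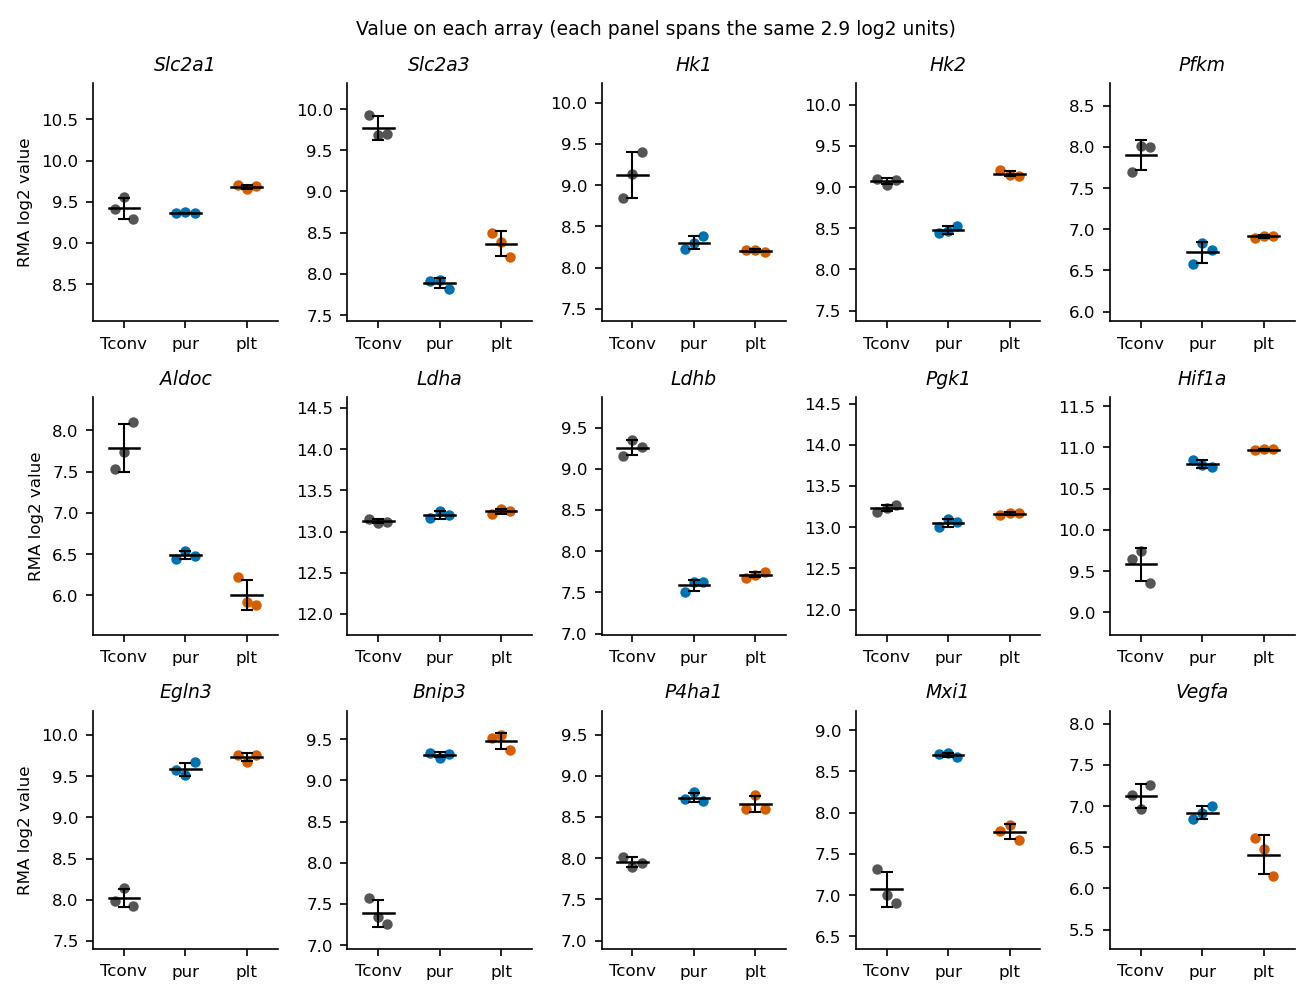
RMA log2 value of 15 members on each array (points, y axis) in Tconv, purTGFβ_iTreg (pur) and pltTGFβ_iTreg (plt), with the mean and SD of 3 arrays as lines; all panels span an equal range of log2 units. Slc2a3, Pfkm, Aldoc and Ldhb step down from Tconv and Hif1a, Egln3, Bnip3 and Mxi1 step up, while Ldha stays between 13.11 and 13.27.

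Oxygen sensing held 3 members, and 2 of them rose in both iTreg groups. Among all genes, 14.5% were called higher with purified TGFβ1 and 13.9% with platelet lysate. Hif1a, which encodes the oxygen-regulated subunit of HIF-1, read 9.64, 9.74 and 9.36 in Tconv, 10.85, 10.78 and 10.77 in purTGFβ_iTreg and 10.96, 10.98 and 10.98 in pltTGFβ_iTreg. The iTreg arrays were tight and lay more than a log2 unit above all Tconv arrays. The rises were 2.33-fold (log2 change 1.22 ± 0.10 SE, adjusted p = 1.18e-06) and 2.63-fold (1.39 ± 0.10, adjusted p = 4.57e-07), and all 4 probe sets of Hif1a were called higher in both comparisons. Egln3, a prolyl hydroxylase that marks HIF-1α for destruction and is itself a HIF target, read 7.99, 8.14 and 7.93 in Tconv, 9.57, 9.51 and 9.67 in purTGFβ_iTreg and 9.76, 9.67 and 9.76 in pltTGFβ_iTreg. Groups did not overlap with Tconv, and the rises were 2.95-fold (log2 change 1.56 ± 0.09 SE, adjusted p = 5.17e-08) and 3.27-fold (1.71 ± 0.09, adjusted p = 3.48e-08). Egln1, the main prolyl hydroxylase of most cells, changed by 0.14 (95% interval -0.05 to 0.32) and 0.13 (-0.06 to 0.32) and was not called. After quantile normalization both were just below 0. Its other probe set rose by 0.44 (adjusted p = 0.00141) and 0.42 (adjusted p = 0.00201), inside the cutoff and so not called either.

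Of the other hypoxia targets, Bnip3, P4ha1 and Mxi1 rose in both iTreg groups. Bnip3, a mitophagy receptor and a classic HIF-1 target, had the largest rise of the members, from 7.57, 7.35 and 7.25 in Tconv to 9.34, 9.28 and 9.31 in purTGFβ_iTreg and 9.51, 9.55 and 9.37 in pltTGFβ_iTreg. No array of Tconv came near the iTreg arrays. The rises were 3.78-fold (log2 change 1.92 ± 0.10 SE, adjusted p = 2.6e-08) and 4.25-fold (2.09 ± 0.10, adjusted p = 1.95e-08). P4ha1, a collagen prolyl hydroxylase subunit, read 8.02, 7.89 and 7.94 in Tconv, 8.71, 8.80 and 8.70 in purTGFβ_iTreg and 8.60, 8.76 and 8.59 in pltTGFβ_iTreg. It was higher on every iTreg array, by 1.72-fold (log2 change 0.79 ± 0.08 SE, adjusted p = 9.45e-06) and 1.63-fold (0.70 ± 0.08, adjusted p = 2.58e-05).

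Mxi1, a MAX partner that opposes MYC and a HIF target, read 7.31, 6.99 and 6.90 in Tconv, 8.71, 8.72 and 8.67 in purTGFβ_iTreg and 7.78, 7.85 and 7.67 in pltTGFβ_iTreg. The platelet lysate arrays lay between the other groups without overlap. It rose 3.11-fold with purified TGFβ1 (log2 change 1.63 ± 0.11 SE, adjusted p = 2.08e-07) and 1.63-fold with platelet lysate (0.70 ± 0.11, adjusted p = 0.000219), the latter below the cutoff after quantile normalization (0.49). P4ha2, the companion of P4ha1, is read by a probe set among the dimmest 40% and went the opposite way, from 4.01, 4.59 and 4.40 in Tconv to 3.37, 3.30 and 3.32 in purTGFβ_iTreg and 3.71, 3.35 and 3.25 in pltTGFβ_iTreg. Every iTreg array was below Tconv, with log2 changes of -1.0 ± 0.15 (SE, adjusted p = 0.000173) and -0.90 ± 0.15 (adjusted p = 0.000415). Vegfa, the vessel growth factor, read 7.14, 6.96 and 7.26 in Tconv, 6.84, 6.92 and 7.0 in purTGFβ_iTreg and 6.61, 6.47 and 6.15 in pltTGFβ_iTreg. The low group was that with platelet lysate (log2 change from Tconv -0.71 ± 0.12 SE, adjusted p = 0.00054), and the purified TGFβ1 arrays overlapped with Tconv (-0.20, adjusted p = 0.199, and 0.07 over the mean of its probe sets). The other probe set of Vegfa was not called against Tconv, at -0.40 with platelet lysate and 0.33 with purified TGFβ1.

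HIF-1 binds the letters ACGTG or GCGTG, the core of the hypoxia response element, and MYC and its relatives bind the E-box CACGTG, which contains ACGTG. The promoters of the 5 members that were higher in both iTreg groups are shown because these genes moved together; letters in capitals match either core on either strand, and a CACGTG holds ACGTG on both. Sequences run 5′ to 3′ along the gene, from 250 bases before the annotated start to 50 after it, and come from RefSeq on GRCm38.p6. The table holds 3 promoters for Mxi1; of these, 2 hold ACGTG, one of which is shown, and the other holds neither core.
Hif1a, chr12:73907617-73907916, plus strand: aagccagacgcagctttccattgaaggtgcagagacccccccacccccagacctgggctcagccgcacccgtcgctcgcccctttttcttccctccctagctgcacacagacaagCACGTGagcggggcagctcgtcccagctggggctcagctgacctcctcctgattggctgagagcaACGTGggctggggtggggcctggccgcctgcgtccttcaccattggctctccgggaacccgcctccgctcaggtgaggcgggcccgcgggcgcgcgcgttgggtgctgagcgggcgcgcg
Egln3, chr12:54203825-54204124, minus strand: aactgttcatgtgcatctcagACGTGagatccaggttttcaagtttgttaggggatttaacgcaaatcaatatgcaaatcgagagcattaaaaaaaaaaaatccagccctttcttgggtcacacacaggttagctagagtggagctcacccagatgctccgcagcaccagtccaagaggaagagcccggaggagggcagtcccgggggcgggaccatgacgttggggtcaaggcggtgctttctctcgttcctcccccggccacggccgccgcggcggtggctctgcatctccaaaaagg
P4ha1, chr10:59323046-59323345, plus strand: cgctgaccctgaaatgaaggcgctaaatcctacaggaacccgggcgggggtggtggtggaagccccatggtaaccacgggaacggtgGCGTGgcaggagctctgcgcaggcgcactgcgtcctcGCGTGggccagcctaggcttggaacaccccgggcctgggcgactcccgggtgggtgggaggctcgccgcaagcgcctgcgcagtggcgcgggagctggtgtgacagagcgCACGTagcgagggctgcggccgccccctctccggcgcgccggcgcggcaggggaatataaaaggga
Bnip3, chr7:138909457-138909756, minus strand: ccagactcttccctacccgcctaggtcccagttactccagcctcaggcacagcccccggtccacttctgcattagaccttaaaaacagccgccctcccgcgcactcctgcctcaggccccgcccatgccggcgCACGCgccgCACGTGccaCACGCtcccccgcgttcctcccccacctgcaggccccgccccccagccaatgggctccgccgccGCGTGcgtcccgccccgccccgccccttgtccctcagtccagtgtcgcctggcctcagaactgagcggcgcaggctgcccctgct
Mxi1, chr19:53329163-53329462, plus strand: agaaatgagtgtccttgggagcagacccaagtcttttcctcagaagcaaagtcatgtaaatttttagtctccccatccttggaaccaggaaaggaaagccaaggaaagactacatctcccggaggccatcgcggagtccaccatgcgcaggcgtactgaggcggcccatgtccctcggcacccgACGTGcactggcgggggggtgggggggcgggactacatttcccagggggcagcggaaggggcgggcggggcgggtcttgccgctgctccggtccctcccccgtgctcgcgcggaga

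All 5 genes held ACGTG in at least 1 promoter, P4ha1 and Bnip3 also held GCGTG, and Hif1a and Bnip3 held CACGTG. Among the 35 members with a promoter in the table, 24 held ACGTG (68.6%) against 21.8% of 27025 genes, 25 held GCGTG (71.4%, against 35.2%), 33 held either (94.3%, against 46.7%) and 6 held CACGTG (17.1%, against 8.09%). A gene counted if any of its promoters matched. Over single promoters, 28 of the members' 52 held ACGTG, against 19.6% of all 32851, and 30 held GCGTG, against 32.4%. The members were listed for these pathways, hypoxia targets among them, and base composition was not matched. An excess over all genes is therefore no result about these arrays. The members that fell held these letters as well: of the 9 lower in both iTreg groups, 8 had a promoter in the table, all with ACGTG or GCGTG, 5 with ACGTG and 7 with GCGTG. The letters thus stood in front of genes that rose, fell and were not called, and a match is a description of the sequence, not of binding. The lactate dehydrogenase genes show this, in the same format, with Ldhb lower in both iTreg groups and Ldha, whose promoter shown holds the more matches, not called. Ldha has a further promoter, not shown, which holds GCGTG but not ACGTG.
Ldhb, chr6:142507908-142508207, minus strand: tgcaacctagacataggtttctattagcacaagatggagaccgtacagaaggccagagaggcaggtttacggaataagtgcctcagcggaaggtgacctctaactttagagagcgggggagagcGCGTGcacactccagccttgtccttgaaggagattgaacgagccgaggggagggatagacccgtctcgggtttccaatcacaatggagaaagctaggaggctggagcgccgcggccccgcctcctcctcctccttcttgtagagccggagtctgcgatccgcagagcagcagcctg
Ldha, chr7:46845554-46845853, plus strand: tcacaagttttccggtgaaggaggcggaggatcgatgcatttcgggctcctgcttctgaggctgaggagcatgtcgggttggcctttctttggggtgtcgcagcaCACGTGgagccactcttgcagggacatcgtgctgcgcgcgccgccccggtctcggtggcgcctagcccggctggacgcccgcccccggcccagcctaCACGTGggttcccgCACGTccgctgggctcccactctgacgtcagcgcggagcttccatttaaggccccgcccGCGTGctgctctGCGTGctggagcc

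The pentose phosphate pathway held 3 tested members. Tkt fell in both iTreg groups and Taldo1 in pltTGFβ_iTreg, where 14.9% (purTGFβ_iTreg) and 14.7% (pltTGFβ_iTreg) of all genes were called lower. Tkt, transketolase, which links the pathway back to glycolysis, read 12.02, 12.16 and 12.11 in Tconv, 11.53, 11.59 and 11.56 in purTGFβ_iTreg and 11.45, 11.40 and 11.36 in pltTGFβ_iTreg. The 3 groups did not overlap, with Tconv highest. Its changes were -0.54 ± 0.08 (SE, adjusted p = 0.000113) and -0.69 ± 0.08 (adjusted p = 1.52e-05), and over the mean of its probe sets they were -0.37 and -0.44, inside the cutoff, as was the former with centred array medians (-0.48). Taldo1, transaldolase, the partner of transketolase, read 10.99, 11.02 and 11.05 in Tconv, 10.69, 10.70 and 10.71 in purTGFβ_iTreg and 10.52, 10.49 and 10.54 in pltTGFβ_iTreg. Those groups did not overlap either, but the changes of -0.32 (adjusted p = 0.00307) and -0.50 (adjusted p = 0.000115) straddled the cutoff, and the latter was -0.49 and not called without Tconv replicate 3 or pltTGFβ_iTreg replicate 2, and -0.45 with centred array medians. Pgd, which makes NADPH in the oxidative arm, changed by -0.30 and -0.24 and was not called.

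The iTreg groups were compared directly to ask what the source of TGFβ1 made different; platelet lysate also carries other contents of platelets, and their part cannot be told apart from that of TGFβ1. Of 32 members, 1 was called higher with platelet lysate (3.12%, against 1.54% of all genes) and 2 lower (6.25%, against 2.57%, and 4.11% of all genes in either direction), with a median difference of 0.09 beside 0.01 over all genes. Hk2 was 1.61-fold higher with platelet lysate (log2 difference 0.68 ± 0.07 SE, 95% interval 0.53 to 0.84, adjusted p = 0.000164). Mxi1 was 1.91-fold lower (-0.93 ± 0.11, -1.17 to -0.70, adjusted p = 0.00029), and its other probe set was called lower too (-0.71). Vegfa was 1.42-fold lower (-0.51 ± 0.12, -0.78 to -0.24, adjusted p = 0.0309). Vegfa was not called without pltTGFβ_iTreg replicate 3 (-0.38) or purTGFβ_iTreg replicate 3 (-0.47), after quantile normalization (-0.47, adjusted p = 0.0525) or in an unmoderated contrast (adjusted p = 0.131), while its other probe set differed by -0.73 (adjusted p = 0.000125). For each of these 3 genes, no array of either iTreg group overlapped with the other. They were named for a called difference on the same arrays, so this gap adds no support to it. Platelet lysate arrays lay wholly above for 13.6% of all genes and wholly below for 14.6%.

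Some members came near the cutoff. Slc2a3 was 0.48 higher with platelet lysate (adjusted p = 0.0161), and was called without pltTGFβ_iTreg replicate 3 (0.56) or purTGFβ_iTreg replicate 2 (0.50) and after quantile normalization (0.52). Of its 3 other probe sets, 1 was called higher (0.55, adjusted p = 0.00409). Slc2a1 was 0.32 higher (adjusted p = 0.049) and Pfkfb3 0.43 higher (adjusted p = 0.0149), neither called. Aldoc was 0.48 lower (log2 difference -0.48, adjusted p = 0.0763) and was called without pltTGFβ_iTreg replicate 1 (-0.59). Over all members, the platelet lysate arrays lay wholly above those of purified TGFβ1 for 15 (13.6% of all genes) and wholly below for 7 (14.6%). The 95% interval was -0.12 to 0.20 for Ldha, -0.19 to 0.19 for Egln1, -0.16 to 0.17 for Pdk3, -0.25 to 0.24 for Pdk1 and -0.09 to 0.22 for Aldoa. The remaining uncalled members differed by -0.18 to 0.31.

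**Figure D3:**
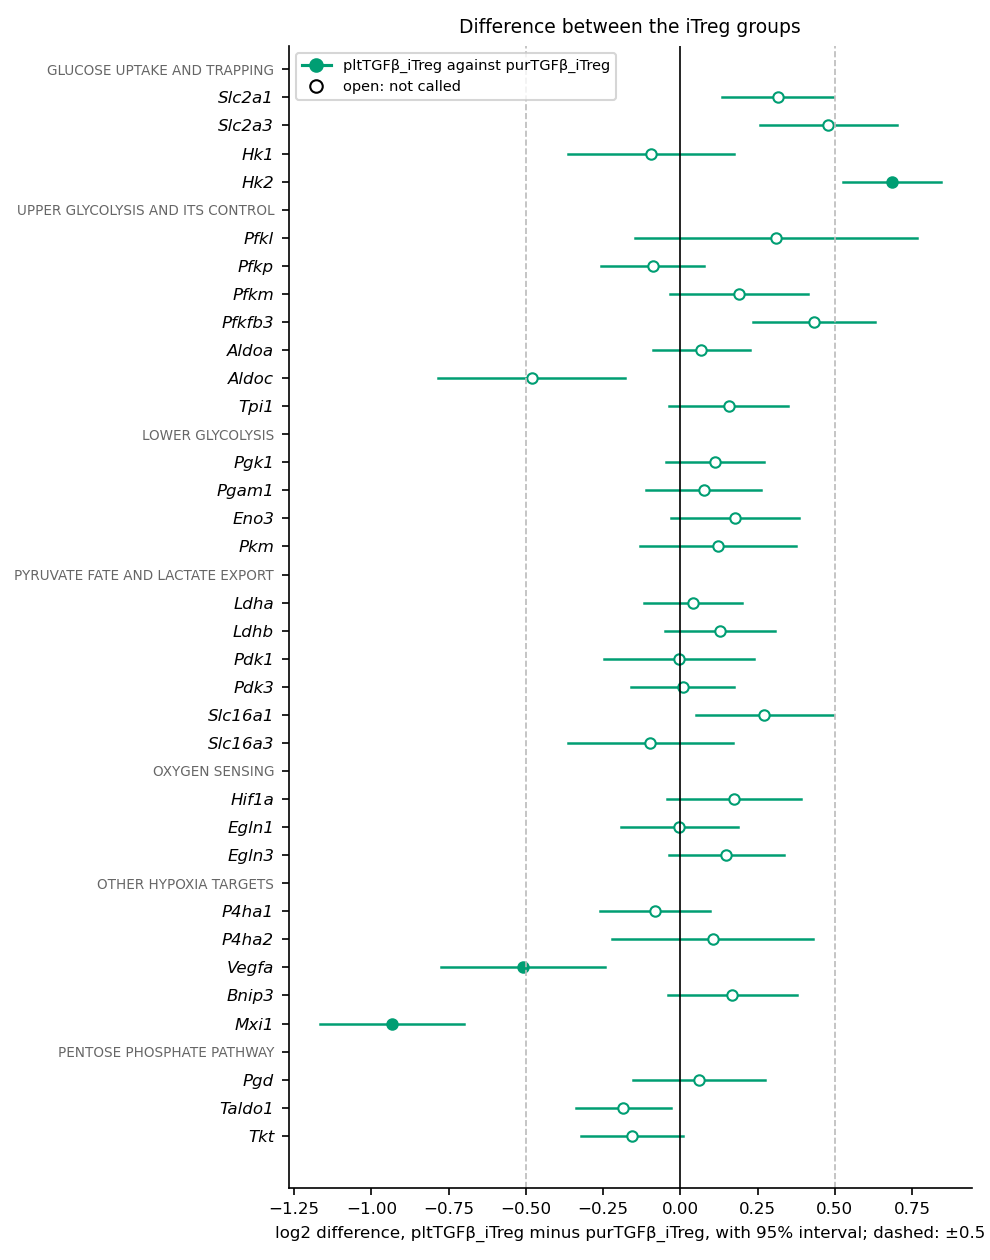
Log2 difference between the iTreg groups, pltTGFβ_iTreg minus purTGFβ_iTreg (x axis), for the 32 tested members by role (y axis), with 95% intervals as bars, open points not called and dashed lines at 0.5 in size. Hk2 at 0.68, Vegfa at -0.51 and Mxi1 at -0.93 are the filled points.

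A list of 80 further genes of these pathways, 75 of them tested, set the members in context. In purTGFβ_iTreg against Tconv 10 were called higher (13.3%, against 14.5% of all genes) and 23 lower (30.7%, against 14.9%), and in pltTGFβ_iTreg 11 (14.7%, against 13.9%) and 22 (29.3%, against 14.7%). Among 22 genes of glycolysis and glycogen, 3 rose and 8 fell with purified TGFβ1, and 3 and 9 with platelet lysate. The 3 that rose in both were Txnip and, named after their values were seen, Ugp2 and Gbe1 of glycogen synthesis. Gys1, glycogen synthase, fell by 1.36 and 1.62 on the log2 scale, and Slc2a6, a further glucose transporter gene, by 1.87 and 1.53. Txnip, which encodes a brake on glucose uptake, read 6.76, 6.78 and 6.68 in Tconv, 8.05, 7.98 and 8.15 in purTGFβ_iTreg and 7.24, 7.22 and 7.37 in pltTGFβ_iTreg, so the purified TGFβ1 arrays were highest. Its rises were 1.32 (adjusted p = 1.31e-07) and 0.54 (adjusted p = 0.00021), the latter not called after quantile normalization (0.32) or without pltTGFβ_iTreg replicate 3 (0.49).

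Among 12 further genes of pyruvate use, 1 rose and 4 fell with purified TGFβ1, and 1 and 3 with platelet lysate. Of all genes, 14.5% rose and 14.9% fell with purified TGFβ1, and 13.9% and 14.7% with platelet lysate. Pdp1, the phosphatase that turns pyruvate dehydrogenase back on, rose by 1.01 and 0.87, and Ldhd, a D-lactate dehydrogenase, changed by -0.78 and -0.59. Dlat, a subunit of pyruvate dehydrogenase, changed by -0.80 and -0.66, and by -0.35 and -0.14 over the mean of its probe sets. Of 9 further pentose phosphate genes, 3 rose in both groups while 1 and 2 fell. Rpe, which interconverts pentose phosphates, rose by 1.30 and 1.38 and Prps2, which makes the ribose donor of nucleotides, by 1.28 and 1.14. Pgls, of the oxidative arm, changed by -0.83 and -1.06.

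Among 27 further hypoxia genes, 2 rose and 9 fell with purified TGFβ1 and 3 rose and 7 fell with platelet lysate. The shares over all genes were 14.5% and 14.9% with purified TGFβ1, and 13.9% and 14.7% with platelet lysate. Plod2, a collagen lysyl hydroxylase and HIF target, read 3.83, 4.07 and 4.37 in Tconv, 7.78, 7.54 and 7.57 in purTGFβ_iTreg and 7.47, 7.28 and 7.06 in pltTGFβ_iTreg. That was a rise of 3.54 (adjusted p = 5.96e-09) and 3.18 (adjusted p = 1.69e-08). Epas1, which encodes HIF-2α, read 7.21, 7.52 and 7.52 in Tconv, 4.74, 4.78 and 4.80 in purTGFβ_iTreg and 4.55, 4.58 and 4.53 in pltTGFβ_iTreg. Its changes of -2.64 (adjusted p = 2.32e-09) and -2.86 (adjusted p = 2.05e-09) ran opposite to those of Hif1a. Bhlhe40, a HIF-responsive repressor, changed by -1.50 and -0.70.

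Between the iTreg groups, 3 of the 75 were called higher with platelet lysate and 2 lower, beside 1.54% and 2.57% of all genes. Bhlhe40 was 0.80 higher (adjusted p = 0.000187) and Txnip 0.78 lower (log2 difference -0.78, adjusted p = 0.000141). The others were Ak4, an adenylate kinase of mitochondria (1.18, adjusted p = 2.05e-05), Car12, a carbonic anhydrase (0.51, adjusted p = 0.00516), and Ddit4, an inhibitor of mTORC1 (-0.80, adjusted p = 6.73e-05), which were named after their values were seen. Car12 was not called over the mean of its probe sets (0.28) or without pltTGFβ_iTreg replicate 1 (0.45) or purTGFβ_iTreg replicate 1 (0.49). Of 5 drivers of T cell glycolysis, Rheb, the GTPase that activates mTORC1, rose by 0.86 in both iTreg groups. Rptor, a subunit of mTORC1, changed by -0.66 and -0.70, and by -0.33 and -0.41 over the mean of its probe sets. Mtor (-0.29 and -0.38) and Myc (0.27 and 0.37) were not called, though Mtor was called lower in pltTGFβ_iTreg after quantile normalization (-0.55) and over the mean of its probe sets (-0.50).

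**Figure D4:**
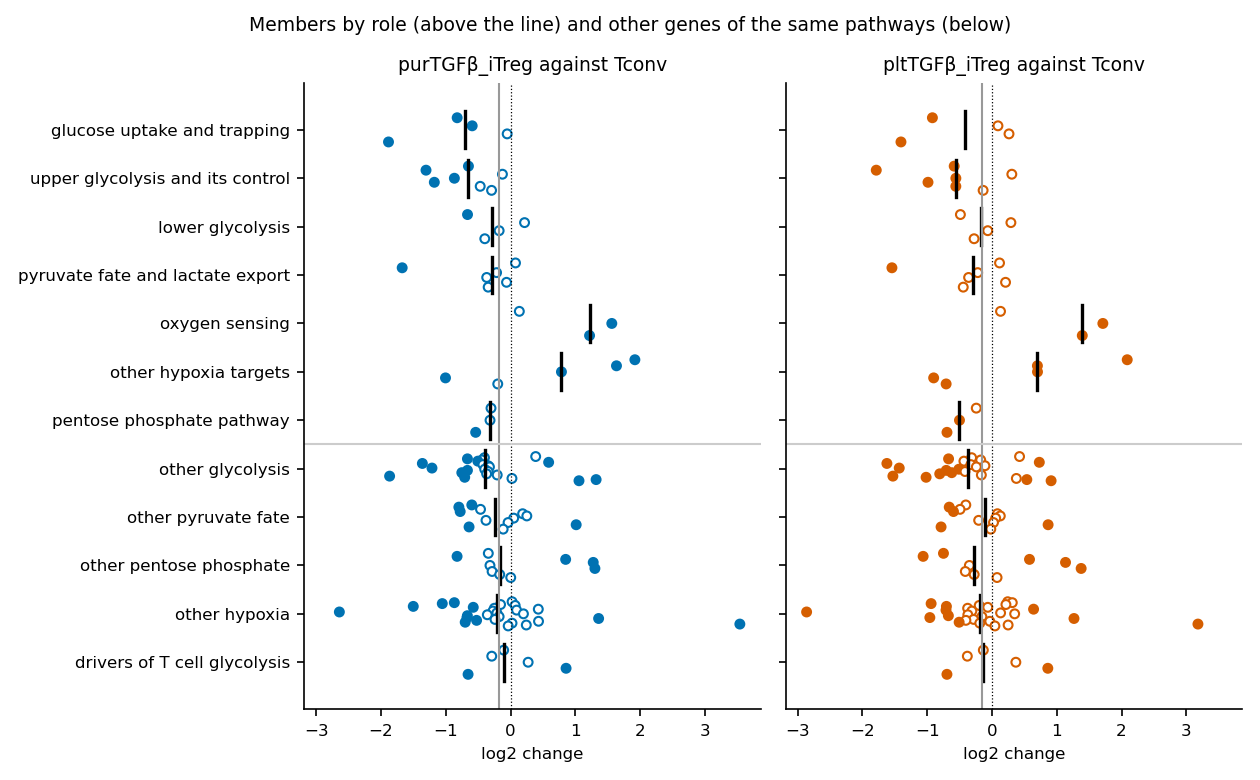
Log2 change from Tconv (x axis) of single genes (points) by list (y axis), members by role above the line and other genes of the same pathways below, for purTGFβ_iTreg (left) and pltTGFβ_iTreg (right); open points were not called, black bars are list medians and the grey line is the median of all genes. Upper glycolysis lies mostly left of the grey line, while oxygen sensing lies to its right.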

How the data were processed

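The authors deposited log2 expression values of 9 arrays, which the series' design text says came from Robust Multichip Analysis (RMA) run in Expression Console. The same text names ANOVA and false discovery rates in Partek, a cutoff of 1.4-fold and a false discovery rate under 10%. RMA corrects background and quantile normalizes the arrays. The array number limits precision; the values hold no detection calls.

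Of 45101 probe sets, 64 controls were left out and 45037 tested. Names came from the platform annotation: 34945 probe sets had 1 symbol, 932 several and 9160 none; 34741 were found in RefSeq (GRCm38.p6) and 0 symbols changed. The probe set with the highest mean over 9 arrays stood for each gene, cross-hybridising ones only where a gene had no other. Members had 72 probe sets. Of the 40 not used, 0 were called opposite to the main one, and 4, 9 and 1 differed in being called in purTGFβ_iTreg against Tconv, pltTGFβ_iTreg against Tconv and between the iTreg groups.

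One limma model (limma 3.58.1, R 4.3.3) with a mean per group over 9 arrays gave each contrast, two-sided, with moderated variances and 95% intervals. With 3 arrays a group, the smallest exact p is 0.1. On simulated data (45037 probe sets, 200 changed) it recovered 65.7% of log2 changes of 0.6 and 92.5% of 1 in purTGFβ_iTreg against Tconv, with 6 false calls. In the real arrays 11640 probe sets were called in that comparison, so these rates do not carry over to them. Members, lists, cutoffs and alternatives were chosen with earlier results of these data known. Per-array values were given for called members with the largest changes, up to 4 a role, and, chosen after their values were seen, for uncalled Slc2a1 and Ldha; other pathway genes are up to 3 a list by lowest adjusted p, with Myc and Txnip. Alternatives were quantile normalization, centred array medians, a filter on the dimmest 40%, trend and robust variances, an unmoderated contrast, a fit on the groups compared, the replicate block, mean of probe sets, stricter cutoffs and leaving out each array. Promoters were matched by symbol (35 of 37 members) and searched on both strands. Plots used Python 3.11.15, pandas 2.3.3 and matplotlib 3.10.9.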

Additional observations from a re-analysis of the deposited data

Results flagged for a closer look

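For 3 members the change from Tconv differed between the iTreg groups, by the direct limma contrast of pltTGFβ_iTreg with purTGFβ_iTreg. Hk2 differed by 0.68 (adjusted p = 0.000164), lower than Tconv with purified TGFβ1 and not called with platelet lysate. Mxi1 differed by -0.93 (adjusted p = 0.00029), higher than Tconv in both groups but less so with platelet lysate. Vegfa differed by -0.51 (adjusted p = 0.0309), lower than Tconv with platelet lysate and not called with purified TGFβ1. The call of that difference was lost under several alternatives. The other probe set of Vegfa was not called against Tconv in either group (-0.40 with platelet lysate, 0.33 with purified TGFβ1). Groups of 3 arrays were not searched for single arrays that stand apart.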

How the results depend on the processing

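Of 72 called changes of members and other named genes, 58 kept their call and direction under every alternative with a value other than the stricter cutoffs. At those, an adjusted p under 0.05 and a log2 change beyond 1, 4 members were higher and 5 lower in purTGFβ_iTreg against Tconv, 3 and 3 in pltTGFβ_iTreg against Tconv and 0 and 0 between the iTreg groups (1 and 2 at the main cutoffs), and 13, 10 and 1 other pathway genes were called. Between the iTreg groups, quantile normalization gave 2 members higher and 1 lower, and the unmoderated contrast 1 lower. Leaving out each array gave 1 to 2 higher and 1 to 3 lower there: Slc2a3 joined without pltTGFβ_iTreg replicate 3 or purTGFβ_iTreg replicate 2, Aldoc joined without pltTGFβ_iTreg replicate 1, and Vegfa left without replicate 3 of either group. The cause of these moves was not tested.

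Signs turned only for changes that were not called. Quantile normalization gave Egln1 -0.0405 in purTGFβ_iTreg against Tconv, -0.033 in pltTGFβ_iTreg against Tconv and 0.0075 between the iTreg groups, gave Hk2 -0.0267 and Pgk1 0.0038 in pltTGFβ_iTreg against Tconv, and gave Pdk1 0.0026, Rheb -0.0104 and Rptor 1e-04 between the iTreg groups. Centred medians gave Slc2a1 0.0067 in purTGFβ_iTreg against Tconv. The mean of probe sets gave Pdk1 0.0429, Slc2a1 0.0077 and Vegfa 0.0658 in purTGFβ_iTreg against Tconv, Slc16a1 -0.0058 and Ak4 -0.0115 in pltTGFβ_iTreg against Tconv and Rpe -0.0235 between the iTreg groups. Leaving out arrays spanned, between the iTreg groups, -0.0552 to 0.0561 for Egln1, -0.0317 to 0.20 for P4ha2, -0.0898 to 0.0437 for Pdk1, -0.0301 to 0.0374 for Pdk3, -0.0197 to 0.0445 for Rheb, -0.14 to 0.0412 for Rptor and -0.17 to 0.0298 for Slc16a3, and in purTGFβ_iTreg against Tconv -0.15 to 0.0019 for Slc16a1 and -0.11 to 0.0139 for Slc2a1.

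The filter on dim probe sets left 31 members, without P4ha2. With the replicate block all counts of members called were the same, and 11643, 11381 and 1464 probe sets were called in place of 11640, 11377 and 1464. Same-numbered arrays' deviations correlated at 0.0919 to 0.262 between the iTreg groups and at -0.123 to 0.0854 between iTreg and Tconv arrays. Of 18 matches of an array to another group, 10 were best with the array's own number. Whether the numbers pair the arrays was not tested.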
